A study of Mus musculus with 6 samples.

Results

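The genes described here are 10 mouse orthologues of genes that lie at human risk loci for polycystic ovary syndrome (PCOS): Gata4, Yap1, Krr1, Rad50, Thada, Zbtb16, Hmga2, Erbb3, Tox3 and Erbb4. They were chosen by name, and all 10 were found among the 18280 genes of the deposited expression table. Dennd1a, Fshr, Lhcgr, Insr and Irf1, which also lie at such loci, were left out of the set. The RNA came from whole ovaries of 3 mice with a Dennd1a transgene (genotype Dennd1aTG, here TG) and 3 wild-type mice (WT), and all 6 animals had been injected with pregnant mare serum gonadotropin (PMSG) 44 h before collection. PMSG acts largely through the FSH receptor and drives follicles to grow. Strain, age and the promoter of the transgene are not given in the sources used here, and transgene transcripts are not separated from those of the endogenous gene. The comparison asks what added Dennd1a does to the other genes that human genetics ties to the same syndrome.

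PCOS is a common disorder of ovulation with raised androgen and arrested small follicles, and its risk variants mostly lie outside coding sequence, so a locus is named after a nearby gene that need not be the one affected. The named genes belong to unrelated pathways. GATA4 is a zinc-finger transcription factor of granulosa and theca cells, YAP1 is the coactivator that the Hippo kinases hold in the cytoplasm, ERBB3 and ERBB4 are receptors for neuregulins, and RAD50 is a subunit of the complex that senses DNA breaks. HMGA2 is an AT-hook chromatin protein mostly of embryonic tissue, ZBTB16 (PLZF) is a zinc-finger repressor induced by glucocorticoids and progestins, TOX3 carries an HMG box, KRR1 takes part in assembly of the small ribosomal subunit, and THADA is a large repeat protein that partners the tRNA methyltransferase FTSJ1.

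Dennd1a was at 570, 582 and 588 CPM (counts scaled to the effective library size) in the TG libraries and at 44.6, 39.5 and 49.3 CPM in the WT libraries, as the labels require. Values of the libraries are given in the order of their replicate numbers throughout. Library totals ran from 17075484 to 18516171 counts. Markers of granulosa cells (6 genes, summed level 4684 to 5984 CPM) and oocytes (8 genes, 118 to 229 CPM) were present in every library. A pair of libraries stood apart in some marker genes of tissue that borders the ovary. TG replicate 2 had a summed level of 217 CPM for 6 adipocyte markers against 14.6 to 44.8 CPM elsewhere, with Cfd at 86.8 CPM and Adipoq at 14.1 CPM. The 44.8 CPM was that of WT replicate 3, with Cfd at 9.45 CPM and Adipoq at 1.53 CPM. It was second highest in each of these markers except Plin1. WT replicate 3 had 40.9 CPM of Ovgp1, the oviduct glycoprotein, against 0.602 to 5.99 CPM elsewhere, and 126 CPM of the muscle filament gene Des against 31.9 to 40.5 CPM. Of the oviduct markers listed only Ovgp1 stood apart. The others reached at most 0.881 CPM in any library. Pax8 (0.705 CPM), Wfdc2 (0.881 CPM) and Dynlrb2 (0.0587 CPM) were highest in WT replicate 3, and Foxj1 and Ccdc153 in TG replicate 2. For the 10 genes, log2 fold changes (TG over WT) are also given without this pair where it moves them by over 1.5 times.

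Promoter sequence from RefSeq (build GRCm38.p6, to which mm10 corresponds) was held for 6 of the 10 genes: Erbb4, Tox3, Yap1, Krr1, Hmga2 and Thada. The 250 bases upstream of each start were searched on both strands for 5 motifs: GGAATG, the core bound by TEAD, the DNA partner of YAP1; CACGTG, an E-box; TGACGTCA, the cAMP response element; AGATAA, which GATA factors bind; and TATAAA, the TATA box. The 3 promoters with a match are shown, since YAP1 acts through TEAD and gonadotropin receptors signal through cAMP. Each line gives the 180 bases before the start, 5′ to 3′ on the strand of the gene, with motif matches in capitals. For Yap1 and Thada the start in the promoter table lies slightly inside the gene bounds given with the values below. For Tox3 and Erbb4 it lies further inside, and the whole window falls within those bounds.
Yap1 (chr9:8004597-8004776, minus strand): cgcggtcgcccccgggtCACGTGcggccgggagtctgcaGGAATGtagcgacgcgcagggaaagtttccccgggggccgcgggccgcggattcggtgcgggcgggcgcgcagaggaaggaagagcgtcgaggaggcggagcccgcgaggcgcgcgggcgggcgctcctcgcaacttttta
Thada (chr17:84466209-84466388, minus strand): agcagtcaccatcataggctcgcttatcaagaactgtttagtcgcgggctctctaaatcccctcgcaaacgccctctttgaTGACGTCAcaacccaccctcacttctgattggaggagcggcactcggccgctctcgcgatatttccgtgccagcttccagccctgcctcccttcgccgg
Krr1 (chr10:111972515-111972694, plus strand): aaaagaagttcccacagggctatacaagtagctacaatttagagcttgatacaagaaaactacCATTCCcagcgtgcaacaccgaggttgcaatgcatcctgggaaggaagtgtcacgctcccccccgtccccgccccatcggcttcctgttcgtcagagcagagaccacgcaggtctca
Yap1 held GGAATG at 141 to 136 bases and CACGTG at 163 to 158 bases before the start. Thada held the palindrome TGACGTCA at 99 to 92 bases, and Krr1 held GGAATG on the opposite strand at 117 to 112 bases. Of 32851 promoter windows of the same length, 12.6% held GGAATG, 6.02% CACGTG and 1.55% TGACGTCA. AGATAA, present in 9.99% of windows, and TATAAA, in 12.4%, were in none of the 6. CpG content differed widely: Yap1 had 44 CpG dinucleotides and Tox3 40 in 250 bases, Thada 14, Erbb4 12, Krr1 9 and Hmga2 8, against a median of 6 over all windows. A match is a stretch of letters and not a measured binding site.

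Transcript levels of the 10 genes spanned a wide range, and by group mean their order was the same in both genotypes except that Zbtb16 and Hmga2 changed places. Levels between genes are compared per length, as FPKM (fragments scaled to transcript length and sequencing depth). Gata4 was the most abundant at 101.1 ± 14.5 FPKM in TG and 94.8 ± 14.5 FPKM in WT (SD, n = 3 each, as for all ± values here), at percentile 94.9 of all genes. Yap1 followed at 31.9 ± 1.83 and 31.2 ± 1.35 FPKM. Krr1 (9.38 to 12.6 FPKM over the 6 libraries) and Rad50 (9.43 to 10.96 FPKM) had overlapping ranges, and Thada lay below both at 2.76 to 3.40 FPKM. These 5 genes were above 1 FPKM in every library. The other 5 were below 1 FPKM in every library: Zbtb16 at 0.57 to 0.94, Hmga2 at 0.38 to 0.74, Erbb3 at 0.30 to 0.49, Tox3 at 0.21 to 0.35 and Erbb4 at 0 to 0.04 FPKM. Among these, each of the first 4 overlapped its neighbour in the order, and Erbb4 overlapped none.

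**Figure D1:**
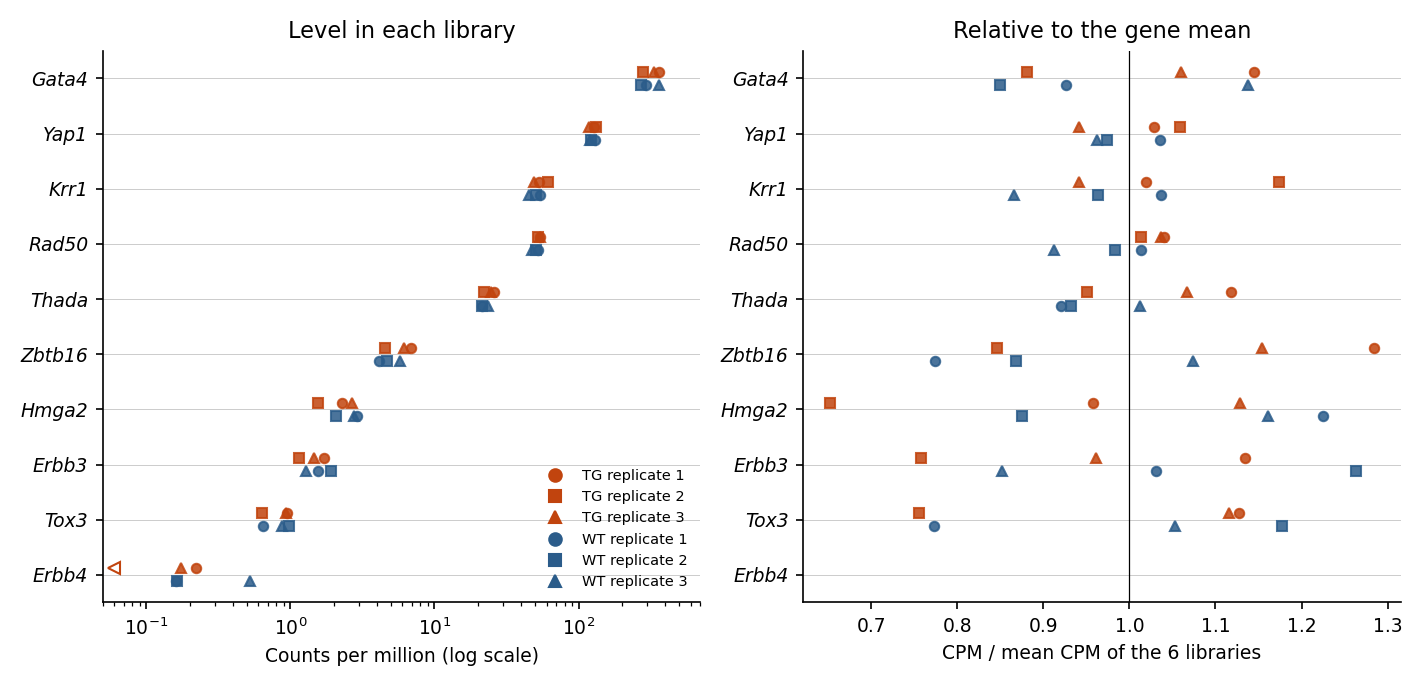
Left, CPM (log axis) of the 10 genes in each of the 6 libraries, TG in red and WT in blue with 1 symbol per replicate number; the open triangle marks the 0 counts of Erbb4 in TG replicate 2. Right, the same values divided by the mean of the 6 libraries, Erbb4 left out: Yap1 and Rad50 stay close to 1, the genes under 1 FPKM spread most, and TG and WT symbols interleave for every gene except Rad50.

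No difference between TG and WT ovaries was called in any of the 9 genes that could be tested. Erbb4 had too few counts for the test over all genes. Of the other genes edgeR called 0 of the 9 at an adjusted p under 0.05, where it called 149 of 14124 genes in all (1.05%). At an unadjusted p under 0.05 there were also 0 of 9 (4.08% of all genes). Without TG replicate 2 and WT replicate 3 there were 2 of 9, Gata4 and Zbtb16, against 6.57% of all genes, and their intervals then lay above 0. For both genes these are the lowest TG and the highest WT library, so leaving them out raises the fold change by construction. DESeq2 (1.3% of all genes called) and limma-voom (0.977%) called 0. With all 6 libraries the lowest unadjusted p was 0.23, for Zbtb16, and the adjusted p in edgeR was 0.9997 for 8 of the 9 and 0.9998 for Tox3. The median log2 fold change (TG over WT) of the 9 was 0.08, against 0.00 over all tested genes, with 7 of 9 above 0 where 50.7% of all genes were. The 7 include Tox3 at 0.000205, whose sign turned under several alternatives. The data bound the change rather than show its absence, and the bounds differ with abundance: the 95% interval had a median width of 0.47 on the log2 scale for the 5 genes above 1 FPKM and 1.25 for the 4 tested genes below it.

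**Figure D2:**
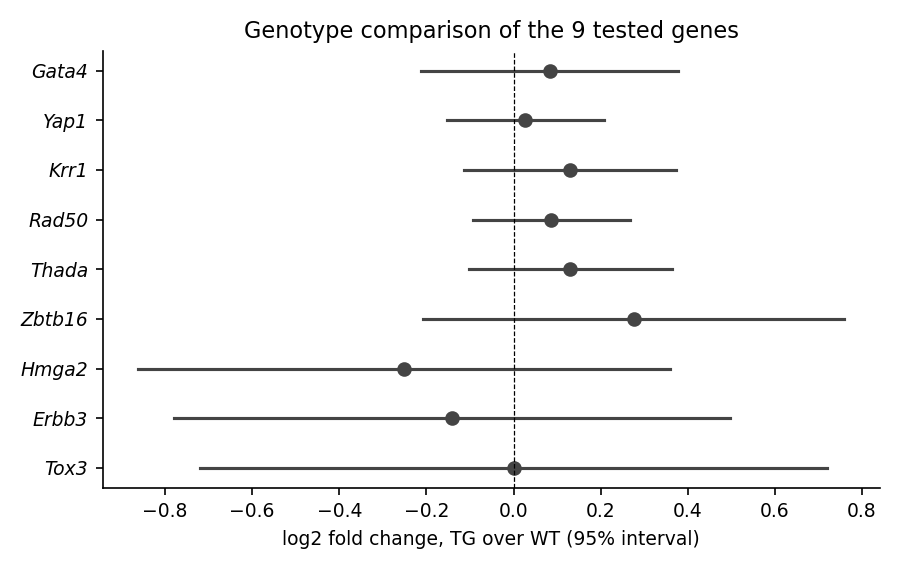
Log2 fold change, TG over WT, of the 9 tested genes (points) with 95% intervals from edgeR (lines), ordered by level. All 9 intervals include 0; the narrowest are those of Yap1 (-0.15 to 0.21) and Rad50 (-0.09 to 0.27).

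Gata4 (Entrez gene 14463; chromosome 14, 63198914 to 63271712, minus strand) is needed in granulosa cells for the response to gonadotropin and switches on steroidogenic genes. It measured 363, 279 and 336 CPM in the TG libraries and 294, 269 and 361 CPM in the WT libraries. High and low libraries occurred in both genotypes, with TG replicate 1 and WT replicate 3 nearly level at the top. TG averaged 326 ± 42.6 CPM and WT 308 ± 47.2 CPM, giving a log2 ratio of TG to WT of 0.08 with an SE of 0.13 and an interval of -0.21 to 0.38. The lower bound of that interval for Gata4 is 0.86 of the WT level. Without TG replicate 2 and WT replicate 3 the log2 fold change of Gata4 was 0.31 (SE 0.09, interval 0.10 to 0.52, unadjusted p = 0.0111 and adjusted p = 0.482 in edgeR), and it was -0.00117 without TG replicate 1 and -0.00454 without WT replicate 2. TG replicate 2 and WT replicate 3 were the lowest TG and the highest WT library for Gata4.

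The other GATA factors and their gonadal partners showed the same absence of calls. Gata6, which shares granulosa functions with Gata4, was at 29.9 ± 3.00 FPKM in TG and 29.1 ± 1.94 FPKM in WT. Gata4 made up between 69.3% and 77.1% of the summed FPKM of the 5 GATA genes in each library, and Gata6 between 18.7% and 26.8%. The order of the libraries differed between this pair: Gata6 was highest in TG replicate 2 at 32.5 FPKM and lowest in TG replicate 3 and WT replicate 3 at 26.6 and 26.9 FPKM, where Gata4 was among its highest. Of 13 genes in the list, all tested, 0 passed and 0 had an unadjusted p under 0.05, with a median log2 fold change of 0.08. Those with the smallest p were Nr5a1 (steroidogenic factor 1) at 0.14, the GATA cofactor Zfpm1 at -0.14 and Nr5a2 at 0.10.

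Yap1 (Entrez gene 22601; chromosome 9, 7931999 to 8004638, minus strand) varied little between libraries, by 6.04% of the mean in TG and 3.99% in WT (SD). It measured 128, 132 and 117 CPM in the TG libraries and 129, 121 and 120 CPM in the WT libraries. The lowest and the highest library were both TG. The log2 ratio of TG to WT was 0.03 with an SE of 0.08 and an interval of -0.15 to 0.21, so the interval reaches from 0.90 to 1.15 of the WT level. Without TG replicate 2 and WT replicate 3 it was -0.03. Wwtr1, which encodes the YAP1 paralogue TAZ, was at 26.3 ± 1.20 FPKM in TG and 26.2 ± 1.28 FPKM in WT, and Yap1 held 53.1% to 56.9% of the summed FPKM of the pair.

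Hippo components and targets of YAP1 and TAZ also had no called gene. Of 20 Hippo genes (kinases, scaffolds and TEAD factors, all tested) edgeR called 0, with 0 at an unadjusted p under 0.05 and a median log2 fold change of -0.01. The smallest p belonged to Vgll4, a competitor of YAP1 for TEAD, at -0.16 (SE 0.09), to Mob1a at -0.15 and to Tead4 at -0.47 (SE 0.32). Of 20 target genes 18 were tested, 0 passed and 1 had an unadjusted p under 0.05, with a median of -0.07. That gene was Igfbp3, an IGF-binding protein, at -0.67 (SE 0.29). Igfbp3 measured 51.0, 57.0 and 60.3 CPM in TG and 58.8, 144 and 64.6 CPM in WT, so WT replicate 2 sets the difference. The receptor tyrosine kinase Axl had -0.24 and Dock5 had 0.14. The canonical targets Ccn1 and Ccn2, listed as Cyr61 and Ctgf, had overlapping groups.

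Erbb3 and Erbb4 were the minor members of their receptor family in these ovaries. ERBB3 binds neuregulin but has an impaired kinase and signals in dimers, chiefly with ERBB2, whereas ERBB4 has an active kinase. Egfr was at 8.75 to 11.7 FPKM and Erbb2 at 4.47 to 6.57 FPKM over the 6 libraries. Erbb3 made up 1.77% to 3.57% of the summed FPKM of the 4 receptors and Erbb4 at most 0.215%.

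Erbb3 (Entrez gene 13867; chromosome 10, 128567523 to 128589635, minus strand) had 31, 20 and 25 counts in the TG libraries and 29, 35 and 22 counts in the WT libraries, or 1.72, 1.15, 1.46, 1.56, 1.92 and 1.29 CPM in that order. The groups overlapped throughout, and the lowest library of each genotype was the one high in fat markers or in Ovgp1. The log2 ratio of TG to WT was -0.14 with an SE of 0.28 and an interval of -0.78 to 0.50. The spread between replicates, 19.8% of the mean in TG and 19.7% in WT, was close to the 19.2% that counting at this depth gives by itself. Summed markers of surface epithelium and mesothelium (6 genes, 0 called) were 86.8, 40.1 and 92.1 CPM in TG and 109, 105 and 37.2 CPM in WT, so the pair of libraries lowest in Erbb3 was also lowest in these markers. Their part in the Erbb3 level was not tested.

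Erbb4 (Entrez gene 13869; chromosome 1, 68031884 to 69108576, minus strand) was too sparse to compare. It had 4, 0 and 3 counts in the TG libraries and 3, 3 and 9 counts in the WT libraries, and it failed the filter on low counts. A count of 0 in TG replicate 2 allows up to 3 counts, or 0.171 CPM of that library, which covers counting error only. WT replicate 3, the library highest in Ovgp1, held 9 of the 15 WT counts. The part of oviduct tissue in them was not tested, and a genotype difference in Erbb4 was not detectable at this depth.

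Egfr, Erbb2 and the ligands and regulators of the ErbB receptors had 0 of 16 tested genes called (18 listed). Of the 16, 0 had an unadjusted p under 0.05, and the median log2 fold change was 0.02. Areg (amphiregulin, an EGFR ligand that the LH surge induces in the follicle) had the smallest p, at 0.72 with an SE of 0.41. It measured 1.72, 0.919 and 0.758 CPM in TG and 0.485, 0.711 and 0.881 CPM in WT, so TG replicates 1 and 2 lay above every WT library, TG replicate 2 by little, and TG replicate 3 lay among the WT values. Hbegf had 0.23 and Nrg1, a ligand of ERBB3 and ERBB4, had 0.33 (SE 0.27).

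**Figure D3:**
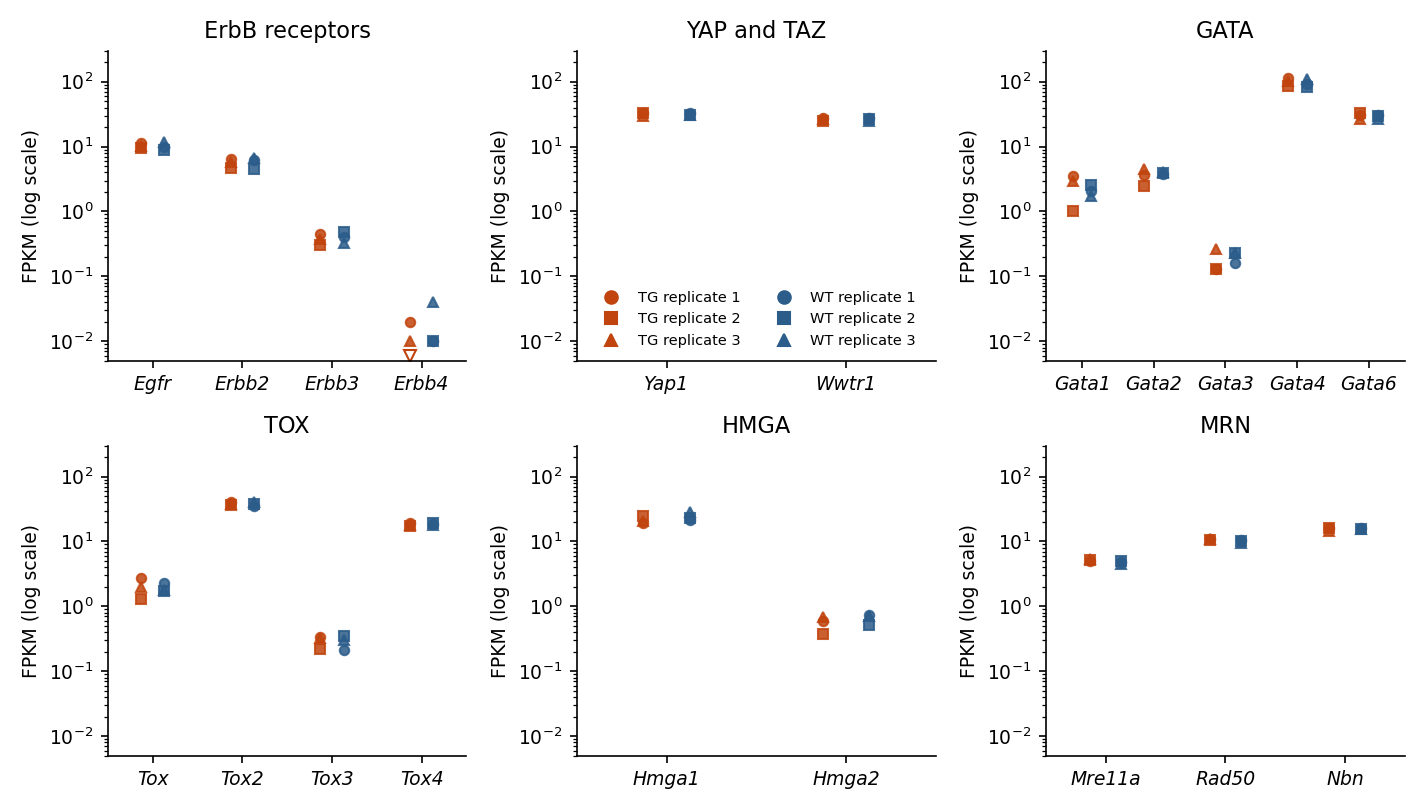
FPKM (log axis) of the ErbB receptors, YAP and TAZ, GATA factors, TOX family, HMGA proteins and the Mre11a, Rad50 and Nbn complex (MRN) in each library, TG in red and WT in blue; the open triangle marks Erbb4 listed at 0. Gata4 leads its family and Yap1 slightly exceeds Wwtr1, while Erbb3, Erbb4, Tox3 and Hmga2 lie well below their relatives in all 6 libraries.

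Rad50 (Entrez gene 19360; chromosome 11, 53649519 to 53707319, minus strand) was the 1 gene of the set whose groups did not overlap in CPM. It measured 53.8, 52.4 and 53.6 CPM in the TG libraries and 52.4, 50.8 and 47.2 CPM in the WT libraries. The lowest TG library and the highest WT library were level to 3 digits, at 52.4 CPM. In FPKM the groups overlapped, with TG replicate 2 at 10.41 and WT replicate 1 at 10.56 FPKM. TG averaged 53.3 ± 0.747 CPM and WT 50.2 ± 2.68 CPM, giving a log2 ratio of TG to WT of 0.09 with an SE of 0.08 and an interval of -0.09 to 0.27. It was 0.06 without TG replicate 2 and WT replicate 3 and 0.0456 without WT replicate 3 alone. A two-sided exact permutation test on log2 CPM gave p = 0.1, the smallest that 3 animals against 3 allow. Non-overlap in CPM in 1 of 9 tested genes (11.1%) compares with 8.25% of all tested genes, so it is near the background.

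RAD50 works with MRE11 and NBN. Mre11a was at 5.19 ± 0.142 FPKM in TG and 4.79 ± 0.236 FPKM in WT, and Nbn at 15.6 ± 1.02 and 15.8 ± 0.231 FPKM. Rad50 made up 31.9% to 35.4% of the 3 genes' summed FPKM. Of 20 other genes of double-strand break repair, all tested, 0 were called and 0 had an unadjusted p under 0.05, with a median log2 fold change of 0.01. Prkdc, the DNA-dependent protein kinase, had 0.18, the histone gene H2ax, listed as H2afx, -0.12 and Mre11a 0.11.

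Thada (Entrez gene 240174; chromosome 17, 84190056 to 84466246, minus strand) measured 25.8, 21.9 and 24.6 CPM in the TG libraries and 21.2, 21.5 and 23.4 CPM in the WT libraries. TG replicate 2 lay among the WT values. The means were 24.1 ± 1.98 and 22.0 ± 1.16 CPM, giving a log2 ratio of TG to WT of 0.13 with an SE of 0.10 and an interval of -0.10 to 0.36. Without TG replicate 2 and WT replicate 3 it was 0.24 (SE 0.11, interval -0.02 to 0.49, unadjusted p = 0.0626 in edgeR), and without TG replicate 1 it was 0.0794. TG replicate 2 and WT replicate 3 were the lowest TG and the highest WT library for Thada too. Of its partners, Ftsj1 had 0.00, the tRNA-modification subunit Wdr6 0.15 (SE 0.08) and the calcium pump gene Atp2a2 0.07. Atp2a3 had -0.14, Atp2a1 was not tested, and 0 of the 4 tested genes of this list passed or had an unadjusted p under 0.05 (median 0.03).

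Krr1 (Entrez gene 52705; chromosome 10, 111972695 to 111988430, plus strand) measured 53.4, 61.6 and 49.3 CPM in the TG libraries and 54.4, 50.5 and 45.4 CPM in the WT libraries. The groups overlapped, with the library high in fat markers at the top and the library high in Ovgp1 at the bottom. The log2 ratio of TG to WT was 0.13 with an SE of 0.11 and an interval of -0.11 to 0.37, and without that pair of libraries Krr1 had -0.03. In all 6 libraries the count of Krr1 had a fractional part, and its sum with the count of Glipr1, a gene that overlaps its end on the opposite strand, was whole to within 0.05. Of 32 small-subunit processome genes, all tested, 0 were called and 0 had an unadjusted p under 0.05. Their median was 0.05 with 24 of 32 above 0, and Nop58 and Utp15 had 0.15 each and Bms1 0.11.

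Zbtb16 (Entrez gene 235320; chromosome 9, 48651797 to 48836225, minus strand) measured 6.88, 4.54 and 6.18 CPM in the TG libraries and 4.15, 4.65 and 5.75 CPM in the WT libraries. A pair of TG libraries lay above every WT library, and TG replicate 2 lay between WT replicates 1 and 2. The means were 5.87 ± 1.20 and 4.85 ± 0.821 CPM, and the log2 fold change of 0.28 (SE 0.21, 95% interval -0.21 to 0.76) was the largest of the 9. Without TG replicate 2 and WT replicate 3, the lowest TG and highest WT library, it was 0.57 (SE 0.21). The interval was then 0.07 to 1.06, with unadjusted p = 0.0303 and adjusted p = 0.662 in edgeR. With 1 library left out the log2 fold change ran from 0.145 (without TG replicate 1) and 0.172 (without WT replicate 1) to 0.415 (without WT replicate 3) and 0.431 (without TG replicate 2). Zbtb16 and Thada shared their 3 highest libraries, TG replicates 1 and 3 and WT replicate 3, with Gata4. Steroid receptors and glucocorticoid-induced genes had 0 of 14 called and 0 at an unadjusted p under 0.05, with a median of -0.06 and 2 of 14 above 0. Dusp1 had -0.27, the kinase gene Sgk1 -0.31 and Fkbp5, a chaperone gene induced by glucocorticoids, -0.14. Without that pair of libraries Sgk1 passed (log2 fold change -0.63, adjusted p = 0.0324 in edgeR), where 119 of 14190 genes were called in all.

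Hmga2 (Entrez gene 15364; chromosome 10, 120361268 to 120476469, minus strand) had 41, 27 and 46 counts in the TG libraries and 54, 38 and 47 counts in the WT libraries, or 2.28, 1.55, 2.68, 2.91, 2.08 and 2.76 CPM. TG replicate 2 was the lowest, and the other TG libraries lay within the WT range. The log2 ratio of TG to WT was -0.25 with an SE of 0.27 and an interval of -0.86 to 0.36, and without the pair of libraries that stood apart it was -0.01. The related Hmga1, whose counts were not whole in any library, held 96.7% to 98.5% of the summed FPKM of both genes. In the list around the microRNA let-7, which represses Hmga2, 5 of 9 genes were tested, 0 passed and 0 had an unadjusted p under 0.05 (median -0.14). The untested genes were Lin28a, Lin28b, Igf2bp1 and Trim71. Hmga1 had -0.16, Ago2 -0.14 and Dicer1 0.05.

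Tox3 (Entrez gene 244579; chromosome 8, 90247110 to 90349029, minus strand) had 17, 11 and 16 counts in the TG libraries and 12, 18 and 15 counts in the WT libraries. The groups covered the same range, and the log2 ratio of TG to WT was 0.00 with an SE of 0.32 and an interval of -0.72 to 0.72. Without TG replicate 2 and WT replicate 3 it was 0.20 with an SE of 0.39. Tox3 held at most 0.599% of the summed FPKM of its family, in which Tox2 was at 38.7 ± 2.05 FPKM in TG and 37.8 ± 2.85 FPKM in WT. The 3 relatives Tox, Tox2 and Tox4 had log2 fold changes of 0.01, 0.04 and -0.05, with 0 called and 0 at an unadjusted p under 0.05 (median 0.01).

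**Figure D4:**
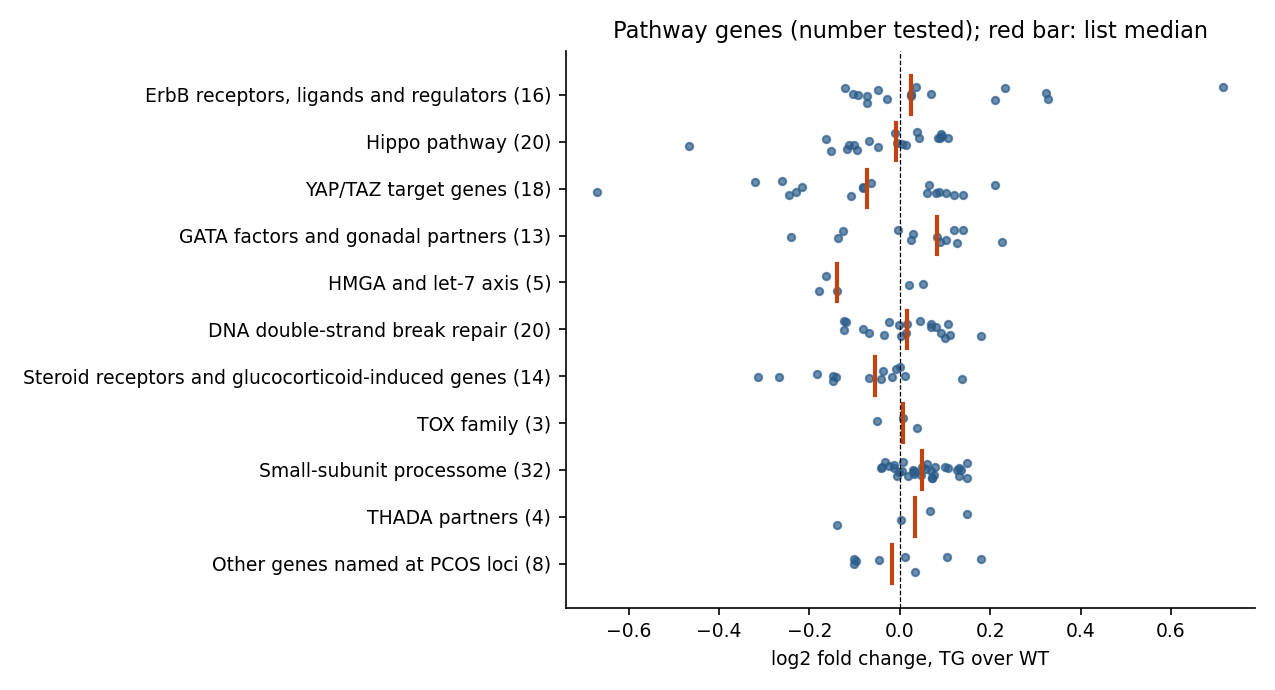
Log2 fold change, TG over WT, of the tested genes in 11 lists drawn around the 10 genes (points, 1 per gene; vertical jitter only separates points), with the list median as a red bar. Medians lie between -0.14 and 0.08; the outlying points are Areg at 0.72, Igfbp3 at -0.67 and Tead4 at -0.47, none of which passed.

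Over the 11 lists 153 genes were tested, edgeR, DESeq2 and limma-voom called 0, and 144 had a log2 fold change within 0.25 of 0. The list of other genes named at PCOS loci had 8 of 9 genes in the table, of which edgeR called 0 with 0 at an unadjusted p under 0.05 (median -0.02). Plgrkt, the plasminogen receptor gene, had -0.10, Arl14ep 0.10 and the sulfite oxidase gene Suox -0.10.

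Because a risk variant can act on any gene nearby, genes within 250 kb of each of the 10 were read from the same fit. There were 62 such tested genes, none of them near Tox3 or Erbb4, with log2 fold changes from -0.53 to 0.41 and a median of -0.02. EdgeR called 0, where it called 1.05% of all tested genes. Of the 62, 4 had an unadjusted p under 0.05, where 4.08% of all tested genes did. Groups did not overlap for 7 (11.3%, against 8.25% over all tested genes). The 4 were Lrpprc near Thada at 0.20, Esyt1 near Erbb3 at -0.24, and Irf1 and Slc22a5 near Rad50.

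Slc22a5, the carnitine transporter gene 157223 bases from Rad50 (chromosome 11, 53864542 to 53891796), had the smallest p of the neighbours. It measured 55.9, 51.8 and 56.6 CPM in the TG libraries and 43.5, 39.0 and 40.9 CPM in the WT libraries, and every TG library lay above every WT library. The means were 54.8 ± 2.59 and 41.2 ± 2.27 CPM, giving a log2 ratio of TG to WT of 0.41 with an SE of 0.08 and an interval of 0.22 to 0.60. It missed the threshold in edgeR with an adjusted p of 0.0714 and passed in DESeq2 with 0.0169, and over all 16 alternatives the adjusted p of Slc22a5 ran from 0.0169 to 0.397. Its counts were not whole in any library. Irf1, an interferon-induced transcription factor 62695 bases from Rad50, lay on the other side of 0: it measured 34.96, 32.6 and 37.4 CPM in TG and 42.3, 41.4 and 39.2 CPM in WT, so the groups did not overlap, and its log2 ratio was -0.23 (SE 0.09, edgeR adjusted p = 0.959). Rad50 lay between this pair at 0.09. Glipr1, which overlaps the end of Krr1, had -0.46 (SE 0.24). It measured 2.57 to 4.47 CPM, well under Krr1. Reads in the overlap were divided between both genes by estimate, and the use of strand in counting is not stated.

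**Figure D5:**
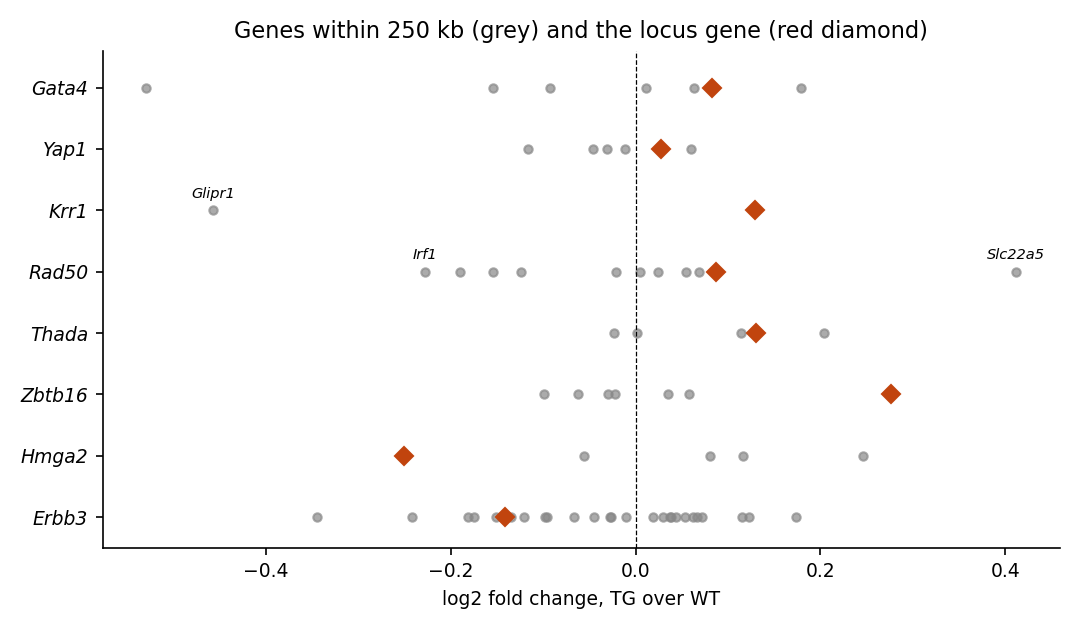
Log2 fold change, TG over WT, of tested genes within 250 kb (grey points) and of the locus gene itself (red diamonds) for the 8 loci that have tested neighbours. Near Rad50 the values run from Irf1 at -0.23 to Slc22a5 at 0.41 with Rad50 at 0.09, and the overlapping Glipr1 lies at -0.46 beside Krr1 at 0.13.

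Libraries differed in ways that crossed genotype. TG replicate 2 was the lowest library for 4 of the 10 genes (Hmga2, Erbb3, Tox3 and Erbb4) and the highest for 2 (Yap1 and Krr1). TG replicate 1 was the highest for 4 (Gata4, Rad50, Thada and Zbtb16) and the lowest for 0. In whole ovary, a change in the number of cells of a type and a change in RNA per cell cannot be told apart. Markers of Schwann cells, which express Erbb3, were at a summed 76.5 to 117 CPM (6 genes, 0 called), with TG from 79.7 to 117 CPM and WT from 76.5 to 106 CPM. Macrophage markers (6 genes, 0 called) were 171 to 178 CPM in TG and 200 to 336 CPM in WT. Theca and interstitial markers (6 genes, 0 called) were 3000.2 to 3652 CPM in TG and 2259 to 3007 CPM in WT. Aldh1a1 and Cyp17a1 made up most of that sum. Of the other listed genes, Insl3 and Gli1 were highest in WT replicate 3, and Ptch1 and Hhip in TG replicate 1. Endothelial markers (6 genes, 0 called) ran from 477 to 650.0 CPM in TG and from 565 to 790 CPM in WT. Haemoglobin and other erythrocyte genes (5 genes, of which Hba-a1, Hba-a2 and Hbb-bs, 3 in all, were called higher in TG) were at a summed 194 to 216 CPM in TG and 119 to 134 CPM in WT. The part of these differences in the levels of the 10 genes was not tested.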

How the data were processed

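Total RNA from the ovaries of 6 mice was sequenced on a BGISEQ-500, per the labels' protocols. Build mm10 and the tools RSEM 1.3.1, Bowtie2 and DESeq2 1.4.5 are listed in the submitters' processing notes, with no roles. The annotation, strand setting and filters are not given in the sources used here. The authors deposited estimated counts per gene, per the file headers, of which 8.5% to 9.12% per library are not whole. A second deposited set of columns was taken as FPKM from its values: over 428 to 458 genes with a single transcript of at least 2000 bases and 200 counts, it implied totals of 93.8% to 94.2% of the summed counts.

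Counts were rounded and tested in edgeR 4.0.16 (R 4.3.3; TMM, filterByExpr with a minimum count of 10 and total of 15, two-sided quasi-likelihood test on genotype, Benjamini-Hochberg over 14124 genes, threshold 0.05). Standard errors were taken as log2 fold change over the root of the F statistic, and intervals are 95% ones from the t distribution. DESeq2 1.42.0 and limma 3.58.1 were alternatives. Coordinates come from RefSeq GRCm38.p6 by Entrez number (18165 of 18280 matched) and strands from GENCODE. Libraries of the same genotype differed beyond sampling noise (chi-square per degree of freedom 7.94 to 21.9), and each library is 1 of 3 animals per genotype.

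The 10 genes, the lists and the libraries singled out were chosen with earlier results of these data known. All 10 genes are named, and in each list the called genes or else the 3 with the smallest p. Neighbours are named where called, overlapping or at an unadjusted p under 0.05. Other genes, the last group of neighbours included, were named after their values were seen. Intervals and the limit for 0 counts cover no error of sampling tissue.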

Additional observations from a re-analysis of the deposited data

How the results depend on the processing

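None of the 10 genes passed under any of the 16 alternatives: RLE, upper-quartile or no composition factors, no count filter, at least 50 counts in 3 samples, a replicate block, each library left out, leaving out both TG replicate 2 and WT replicate 3, DESeq2, limma-voom, and limma-trend on log2(FPKM + 1). Genes not fitted under a filter have no value there. Over all genes the calls ran from 119 to 200 around 149, with 159 under the replicate block. DESeq2 called 1 neighbour, Slc22a5, and without TG replicate 2 and WT replicate 3 there was 1 listed gene called, Sgk1.

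The sign turned for 5 genes, Yap1, Erbb3, Gata4, Krr1 and Tox3, none of them called. With single libraries left out Yap1 ran from -0.00867 (without TG replicate 2) to 0.0736, Erbb3 from -0.288 to 0.0142 (without WT replicate 2) and Gata4 from -0.00454 (without WT replicate 2) to 0.212, with -0.00117 without TG replicate 1. Yap1 had -0.0299 without TG replicate 2 and WT replicate 3, where Krr1 had -0.0298. Tox3 had -0.161 without WT replicate 1, -0.0964 without TG replicate 1, -0.0853 without TG replicate 3, -0.00186 with no count filter, -5.68e-05 in DESeq2 and -0.000382 under the replicate block. With a library left out in turn Tox3 ran from -0.161 to 0.165. The cause was not tested.

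The replicate numbers were not taken as pairs: deviations of same-numbered libraries correlated at 0.228, 0.0797 and 0.0935, not all above 0.1, though each library correlated best with its own number, a hint from the data and not the design. Counting error limits Erbb3, Tox3, Hmga2 and Erbb4 most.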
